A study of Mus musculus with 7 samples.

Results

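The genes described here move calcium into and out of the sarcoplasmic reticulum, the calcium store of the heart muscle cell. They are Pln, Atp2a2, Sln, Ryr2, Casq2, Slc8a1, Hrc, Trdn and S100a1, taken by name from the array annotation. These 9 of 12393 annotated genes were read by 24 of 22626 probe sets. Left ventricles of 3 male mice labelled eNOS (-/-), numbered M4, M10 and M140, were set against those of 4 male mice labelled (+/+), numbered M23, M125, M128 and M158. All 7 mice were 21 months old and each was hybridized to its own Affymetrix MOE430A array. eNOS, encoded by Nos3, makes nitric oxide in the lining of blood vessels. The labels give neither the strain nor the design of the disrupted allele, and a keyword names exercise without an exercise state for any mouse. The purpose given is to find transcripts that accompany heart failure in old males lacking eNOS.

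In each heartbeat, calcium that enters the cell opens the ryanodine receptor (Ryr2), which releases calcium from the store and starts contraction. Relaxation follows as the pump SERCA2 (Atp2a2) returns calcium to the store and the sodium-calcium exchanger (Slc8a1) expels the rest. Phospholamban (Pln) and, in atria, sarcolipin (Sln) are small membrane proteins that slow the pump, and phosphorylation of phospholamban under adrenergic drive lifts that brake. Inside the store, calsequestrin (Casq2) and the histidine-rich calcium-binding protein (Hrc) hold calcium, and triadin (Trdn) ties calsequestrin to the release channel.

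On 1 of its 3 probe sets, phospholamban transcript read lower on every knockout array than on every wild-type array, at about 61.3% of the wild-type mean. The other probe sets of the gene read at the top of the scale on each of the 7 arrays and could not show a difference. No tested probe set of the 9 genes had an adjusted p under 0.05 by limma, and on this probe set of Pln it was 0.0769. As 0 of all 13836 tested probe sets had one under 0.05, this says nothing particular about these genes. Of the 24 probe sets, 20 were bright enough to be tested and 16 of these stayed below the limit on all arrays. Among the 16, the knockout and wild-type arrays did not overlap for 1, which was Pln, against 9.30% of all tested probe sets (4.34% lower in knockout). At an unadjusted p under 0.05 there was again 1 of 16 (6.25%), lower, against 11.8% of the 13836 tested probe sets (5.25% lower in knockout). With 1 of 16, the share of members is near the background, and the count says nothing of the group as a whole.

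The deposited intensities are on a linear scale and stop at 44145 to 45552, depending on the array. A probe set was taken as at the limit on an array if it read at least 98% of that array's highest value. Array medians were 671 to 699. The Nos3 probe set (1422622_at) read 1145, 1413 and 1135 on knockout M4, M10 and M140, against 791, 1163, 872 and 1058 in wild type M23, M125, M128, M158 (log2 difference 0.35 ± 0.15 SE, adjusted p = 0.42 by limma). The sources used here do not say where it lies relative to the disruption, and it checks no label. Of 7 markers of ventricular muscle, 6 were at the limit on all 7 arrays. The seventh, Mybpc3, was at the limit on the knockout arrays and on wild-type M125, and read 26935, 30334 and 40290 on wild-type M23, M128 and M158. Atrial muscle differed between hearts: its light chain Myl7 read 1207, 17557 and 407 on knockout M4, M10 and M140, against 356, 16097, 2926 and 399 in wild type M23, M125, M128, M158. Of the 7 atrial markers 6 were on the array, and their summed intensity was 49161 to 67869 on the knockout arrays and 10548 to 69702 on the wild-type arrays. Most of the knockout sums came from Nppa, a natriuretic peptide that stressed ventricles also make. It was at the limit on knockout M4 and M140 and read 37741 on knockout M10, against 6717, 32820, 12669 and 7993 in wild type M23, M125, M128, M158. Without Nppa the sum of the other 5 was 3621 to 30128 on the knockout arrays and 3831 to 36883 on the wild-type arrays, which overlapped. The ratio of 5' to 3' Gapdh signal, a sign of RNA length whose 3' signal was itself at the limit, was 0.521 to 0.759 on the knockout arrays and 0.0978 (M23), 0.777 (M125), 0.683 (M128) and 0.340 (M158) on the wild-type arrays. Of 7 macrophage markers 3 read higher in knockout at an unadjusted p under 0.05 (6.75% of all tested genes did), namely Cd68 (log2 0.43), Csf1r (0.49) and Fcgr3 (0.54), and the summed intensity of the 7 was 20319 to 24502 on the knockout arrays and 16074 to 20782 on the wild-type arrays. Of 7 endothelial markers 1 did, Vwf (log2 1.26), with sums of 18950 to 19685 in knockout and 14236 to 19479 in wild type. The groups did not overlap for these 4 genes, whose adjusted p by limma was 0.166 to 0.294, and their part in the Pln difference was not tested. Of 7 fibroblast markers 5 read higher and 2 lower in knockout, and 0 had an unadjusted p under 0.05 by limma. Their summed intensity was 21106 to 94710 on the knockout arrays and 27467 to 43472 on the wild-type arrays. Among them, Postn read 21455, 1684 and 37003 on knockout M4, M10 and M140, against 2619, 3011, 5504 and 4060 in wild type M23, M125, M128, M158. The part of fibroblasts in the Pln difference was not tested. Mybpc3, Nppa, Postn and the 4 macrophage and endothelial genes were named after their values were seen. Hybridization days, coded 1 to 4, held knockout M140 with wild-type M128 (day 1), wild-type M125 alone (day 2), knockout M4 and M10 (day 3) and wild-type M23 and M158 (day 4). Scan days and chip lots split the arrays in the same way. Apart from day 1 each day held 1 group, so on those arrays genotype cannot be told apart from day, scan or chip lot. Each mouse is 1 sample, and in ventricle RNA fewer cells of a type cannot be told apart from less RNA per cell.

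Promoter sequence is shown for Pln, the gene whose arrays stood apart, and for Ryr2, whose arrays did not. Each run is the 250 bases before the transcription start in RefSeq (GRCm38.p6), 5′ to 3′ on the gene's strand. Capitals mark matches on either strand to 6 motifs, namely the TATA box TATAAA, the CCAAT box, the E box CANNTG, the M-CAT element CATTCC, the GATA element AGATAA and the GC box GGGCGG.
Pln, chr10:53337436-53337685, plus strand: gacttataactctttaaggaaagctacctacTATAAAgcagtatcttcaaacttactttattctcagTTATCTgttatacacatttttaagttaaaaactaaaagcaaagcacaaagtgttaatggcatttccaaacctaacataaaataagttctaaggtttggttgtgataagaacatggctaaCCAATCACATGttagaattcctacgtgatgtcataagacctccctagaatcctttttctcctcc
Ryr2, chr13:12106946-12107195, minus strand: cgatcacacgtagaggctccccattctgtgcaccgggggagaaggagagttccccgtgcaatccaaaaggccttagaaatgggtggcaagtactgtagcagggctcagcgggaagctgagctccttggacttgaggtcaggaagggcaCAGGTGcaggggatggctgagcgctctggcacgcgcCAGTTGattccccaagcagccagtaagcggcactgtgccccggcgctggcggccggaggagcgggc
The Pln window had 32.8% G and C, and the Ryr2 window 63.2%. The Pln window held a CCAAT match directly followed by an E box, 64 to 54 bases before the start, a TATAAA match at 219 and an AGATAA match on the other strand at 183. The Ryr2 window held only E boxes, at 102 and 66. Of all 32851 promoters in the table, 33.8% held CCAAT, 66.2% an E box, 12.4% TATAAA and 9.99% AGATAA in the same window. These matches describe letters only. Of the 9 genes 6 were in that table, and Ryr2 had the highest share of G and C among them. The Hrc window also held a CCAAT match, on the other strand at 64, and the Slc8a1 window an AGATAA match at 68.

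The question for Pln and its target pump was whether they differed between knockout and wild-type ventricles, and whether probe sets of 1 gene told the same story. Pln on probe set 1423359_at read 21407, 23368 and 25075 on knockout M4, M10 and M140, against 39577, 34111, 37490 and 40635 in wild type M23, M125, M128, M158. The highest knockout array lay well below the lowest wild-type array. These readings were 47.7% to 55.1% of the upper limit on the knockout arrays and 77.3% to 89.2% on the wild-type arrays. The means were 23283 ± 1835 (SD, n = 3) in knockout and 37953 ± 2876 (SD, n = 4) in wild type. On the log2(intensity + 16) scale the difference was -0.70 ± 0.08 (SE), with a 95% interval of -0.89 to -0.52, an unadjusted p of 2.3e-05 and an adjusted p of 0.0769 by limma. It had the second smallest p (rank 2) of the 13836 tested probe sets, and 0.152% of them had an adjusted p under 0.10 (0.065% lower in knockout). Without knockout M10 the adjusted p was 0.0438, without knockout M140 it was 0.0393 and without knockout M4 it was 0.426. With limma array weights it was 0.0151. Those weights were 3.81 for knockout M4, the array with the lowest Pln reading, and 0.37 (wild-type M128) to 1.87 (wild-type M158) for the others. On day 1, the single day with both groups, Pln on knockout M140 minus wild-type M128 was -0.58. With Myl7 as a covariate the log2 difference was -0.69 (adjusted p = 0.0757), and without the arrays with most Myl7, knockout M10 and wild-type M125, it was -0.76 (adjusted p = 0.0956). Without wild-type M23 and M158, the arrays of lowest Gapdh ratio, it was -0.62 (adjusted p = 0.228). Those arrays, hybridized on the same day, also held the highest Pln readings, 39577 and 40635. The part of RNA length in the Pln difference was not tested.

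The brighter Pln probe sets tell nothing about a change. Probe set 1450952_at read at least 99.97% of the upper limit on all 7 arrays. Probe set 1460332_at read at least 99.5% of it, the lowest share being that of knockout M140. A reading at the limit is only a lower bound on the signal, and these probe sets can neither bear out nor contradict 1423359_at. The sources used here do not say where the probe sets lie in the Pln transcript.

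The pump itself showed no such separation. Probe set 1427250_at of Atp2a2 read 17657, 17865 and 17757 on knockout M4, M10 and M140, against 18197, 17729, 14763 and 17735 in wild type M23, M125, M128, M158. Apart from wild-type M128 the arrays lay within a narrow band and the groups overlapped. The log2 difference was 0.06 ± 0.09 (SE), with an interval of -0.15 to 0.27 (adjusted p = 0.866 by limma), an interval that does not reach -0.70. Without wild-type M128 the difference was -0.010, and on day 1 it was 0.27. The dimmer probe set 1427251_at varied far more, with 1838, 2427 and 1870 on knockout M4, M10 and M140 against 1245, 2444, 2876 and 1602 in wild type M23, M125, M128, M158. Its 3 highest arrays, wild-type M128, wild-type M125 and knockout M10, are also those with most Myl7. Its lowest arrays, wild-type M23 and M158, are those of lowest Gapdh ratio (0.0978 and 0.340). The part of atrial muscle or of RNA length in these readings was not tested. The log2 difference of 1427251_at was 0.07 ± 0.28 (SE; adjusted p = 0.960). The other probe sets of Atp2a2, 1416551_at and 1452363_a_at, read at the limit on every array, and no fold is given for them.

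**Figure D1:**
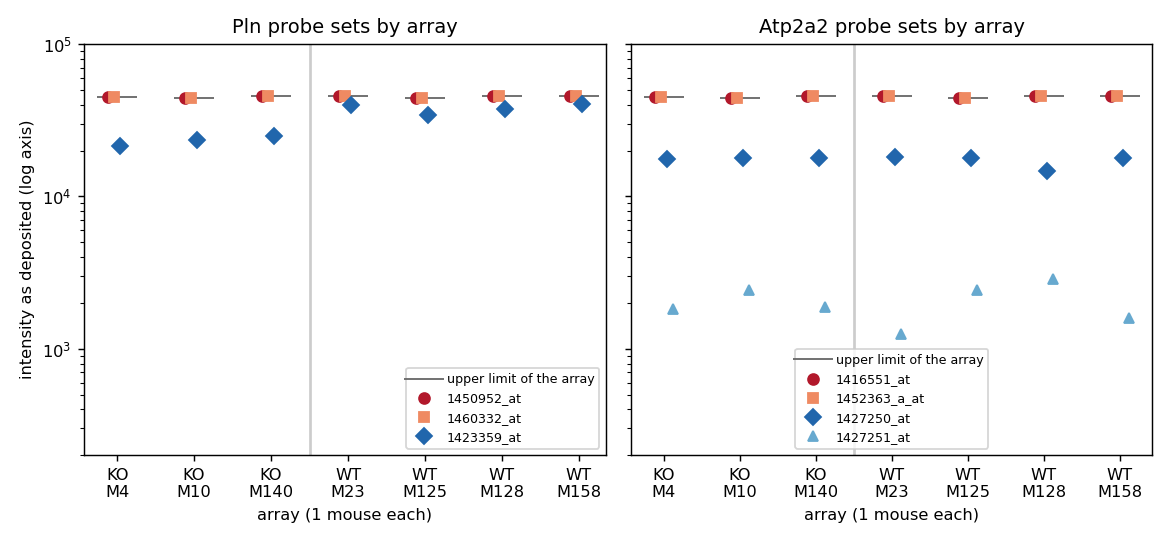
Intensity as deposited (log axis) of every probe set of Pln (left) and Atp2a2 (right) on each array, knockout arrays left of the grey line and wild-type arrays right of it; short dashes mark each array's upper limit. Pln 1423359_at reads 21407 to 25075 on knockout arrays and 34111 to 40635 on wild-type arrays, while the other Pln probe sets and a pair of Atp2a2 probe sets lie on the limit.

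Because the pump and its inhibitor act on each other, the readings were also compared inside each array, where any scaling between arrays drops out. The log2 of Pln (1423359_at) minus that of Atp2a2 (1427250_at) was 0.28, 0.39 and 0.50 on knockout M4, M10 and M140, against 1.12, 0.94, 1.34 and 1.20 in wild type M23, M125, M128, M158. The groups did not overlap, and the difference of their means was -0.76. The exact two-sided permutation p over the 35 splits was 0.0286, the smallest that 7 arrays allow. After Benjamini-Hochberg adjustment over 5 such pairs it was 0.143. A lone pair at the smallest p adjusts to 0.143, so it could not pass the threshold for adjusted p by itself. Pln on 1423359_at alone had already separated the groups, and Atp2a2 on 1427250_at varied too little to undo that. The smallest p therefore followed from the Pln readings and is no separate result. The genes were also chosen with earlier results of these data known. The level of 1 probe set against another has no meaning in itself; only its change between groups does, and it shows unequal differences, not which of the pair moved. Hrc minus Atp2a2 was 0.64 ± 0.12 (SD, n = 3) in knockout and 0.89 ± 0.10 (SD, n = 4) in wild type. These groups did not overlap either (difference -0.25, exact permutation p = 0.0571, adjusted p = 0.143). Hrc alone did overlap, as wild-type M128 read 27030, inside the knockout range of 25100 to 29445. On that array Atp2a2 1427250_at had its lowest reading, 14763, and the part of this reading in the separation was not tested. The third pair against the pump, Slc8a1 minus Atp2a2, differed by 0.04 (exact permutation p = 0.743). Against the release channel, Casq2 minus Ryr2 differed by -0.01 (exact permutation p = 0.943) and Trdn minus Ryr2 by -0.45 (exact permutation p = 0.20), both with overlapping groups.

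**Figure D2:**
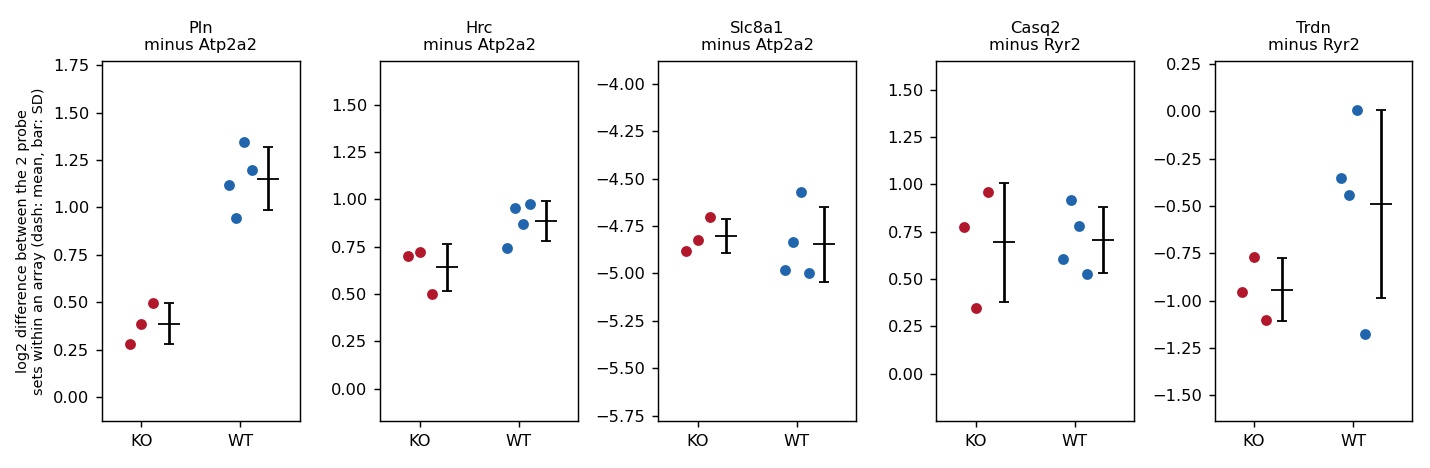
Log2 difference between the probe sets of 2 genes within each array (points), for knockout (left in each panel) and wild type (right), with mean (dash) and SD (bar); all panels span the same range. For Pln minus Atp2a2 the knockout arrays lie at 0.28 to 0.50 and the wild-type arrays at 0.94 to 1.34.

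Sarcolipin, the atrial counterpart of phospholamban, varied widely within both groups. Probe set 1420884_at of Sln read 708, 6105 and 477 on knockout M4, M10 and M140, against 445, 6762, 3071 and 358 in wild type M23, M125, M128, M158. High and low arrays occurred in both groups, and the 3 highest were the 3 with most Myl7. The log2 difference was -0.09 ± 1.22 (SE), with an interval of -2.89 to 2.72 (adjusted p = 0.988 by limma), too wide to bound a change. Its other probe set, 1420883_at, was dim, at 403 to 413 on the knockout arrays and 403 to 464 on the wild-type arrays, and was not tested. Among 8815 genes, members left out, those closest to Sln in mean absolute difference of log2 deviations over the 7 arrays were Myl4 (0.46) and Myl7 (0.63), both atrial myosin light chains, against a mean absolute deviation of Sln itself of 1.64. Hamp, S100a9 and S100a8 followed at 1.01, 1.02 and 1.06.

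**Figure D3:**
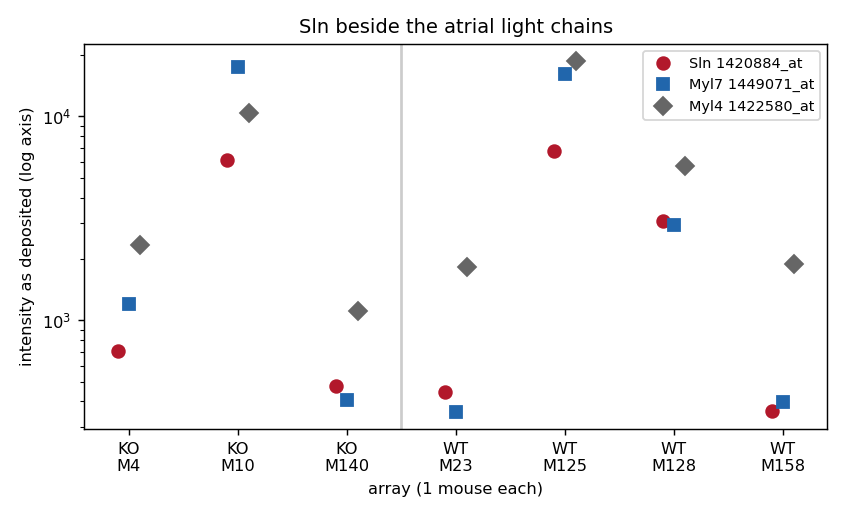
Intensity as deposited (log axis) of Sln and of the atrial light chains Myl7 and Myl4 on each array, knockout left and wild type right of the grey line. All of them are high on knockout M10, wild-type M125 and wild-type M128.

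For the release channel, Ryr2 read on 1450123_at 18091, 17741 and 17741 on knockout M4, M10 and M140, against 17389, 16084, 18548 and 20418 in wild type M23, M125, M128, M158. The knockout readings lay inside the wild-type range. The log2 difference was -0.01 ± 0.09 (SE), with an interval of -0.23 to 0.20 (adjusted p = 0.970 by limma). A dim probe set, 1421126_at, read 210 to 251 on the knockout arrays and 227 to 370 on the wild-type arrays and was not tested.

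Triadin was read by 6 probe sets that gave unlike differences. On the brightest, 1451801_at, Trdn read 9327, 10390 and 8257 on knockout M4, M10 and M140, against 13640, 11843, 18616 and 9014 in wild type M23, M125, M128, M158. Only wild-type M158 fell among the knockout readings. The log2 difference was -0.47 ± 0.23 (SE; unadjusted p = 0.075, adjusted p = 0.481 by limma). The probe sets 1426144_x_at and 1426143_at gave log2 differences of -0.42 each, with adjusted p of 0.465 and 0.581, and 1426142_a_at gave -0.24. Without wild-type M128 these 4 differences were smaller, at -0.29 for 1451801_at, -0.26 for 1426144_x_at, -0.24 for 1426143_at and -0.052 for 1426142_a_at. In contrast, 1451940_x_at and 1426134_at gave -0.05 and 0.08. Wild-type M125 was the lowest array on the last pair and not on the others, and wild-type M128 was the highest on all 6. Within an array, 1451801_at minus 1426134_at averaged 1.28 on the log2 scale on knockout arrays and 1.82 on wild-type arrays, a pair chosen after the values were seen and therefore not tested. Endings _x_at and _s_at mark probe sets that can also bind related transcripts.

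Among the store proteins, Casq2 on its single probe set, 1422529_s_at, read 30972, 22593 and 34510 on knockout M4, M10 and M140, against 26468, 30349, 31830 and 29387 in wild type M23, M125, M128, M158. Knockout arrays were both the highest and the lowest. The log2 difference was -0.03 ± 0.14 (SE), with an interval of -0.35 to 0.30 (adjusted p = 0.968 by limma). Hrc on 1419109_at read 28711, 29445 and 25100 on knockout M4, M10 and M140, against 30513, 34331, 27030 and 34821 in wild type M23, M125, M128, M158. Knockout readings sat in the lower part of the range, and wild-type M128 overlapped them. The log2 difference was -0.19 ± 0.10 (SE), with an interval of -0.42 to 0.05 (unadjusted p = 0.107, adjusted p = 0.539 by limma), and without knockout M140 it was -0.12.

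S100a1, a calcium sensor that binds the release channel and the pump, gave unlike readings on its probe sets. The bright 1419814_s_at read 35371, 29494 and 35900 on knockout M4, M10 and M140, against 35114, 34475, 36450 and 35371 in wild type M23, M125, M128, M158, so that only knockout M10 stood below the rest. Probe set 1417421_at ran from 8790 to 12601 on the knockout arrays and from 6126 on wild-type M23 to 17904 on wild-type M128. Their log2 differences were -0.08 ± 0.07 and -0.18 ± 0.34 (SE; adjusted p = 0.744 and 0.895 by limma). The low reading of 1417421_at on wild-type M23 coincided with the lowest Gapdh ratio, 0.0978, and the part of RNA length in it was not tested.

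The exchanger Slc8a1 was dim on all 3 of its probe sets, with 584, 615 and 666 on knockout M4, M10 and M140 against 560, 605, 605 and 540 in wild type M23, M125, M128, M158 for the single tested one, 1420210_at. The groups overlapped, with a log2 difference of 0.10 ± 0.08 (SE; adjusted p = 0.670 by limma), and of 0.053 without knockout M140. Probe set 1440201_at read 356 to 409 on the knockout arrays and 314 to 428 on the wild-type arrays and was not tested. Probe set 1425817_a_at lay below the 40th percentile of every array and read 356, 314 and 407 on knockout M4, M10 and M140, against 287, 306, 258 and 310 in wild type M23, M125, M128, M158. These did not overlap, but with no filter the adjusted p was 0.437 by limma.

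**Figure D4:**
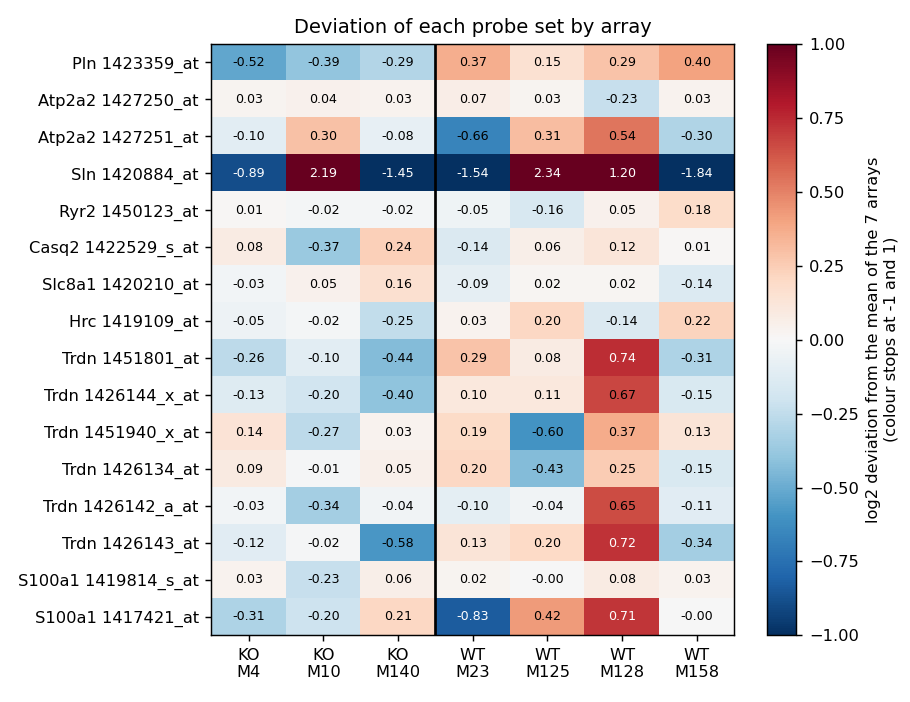
Log2 deviation of each tested probe set below the limit from its own mean over the 7 arrays (numbers in the cells; red above, blue below), knockout arrays left of the black line. Pln is below its mean on all knockout arrays and above it on all wild-type arrays; Trdn is highest on wild-type M128 on every probe set.

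**Figure D5:**
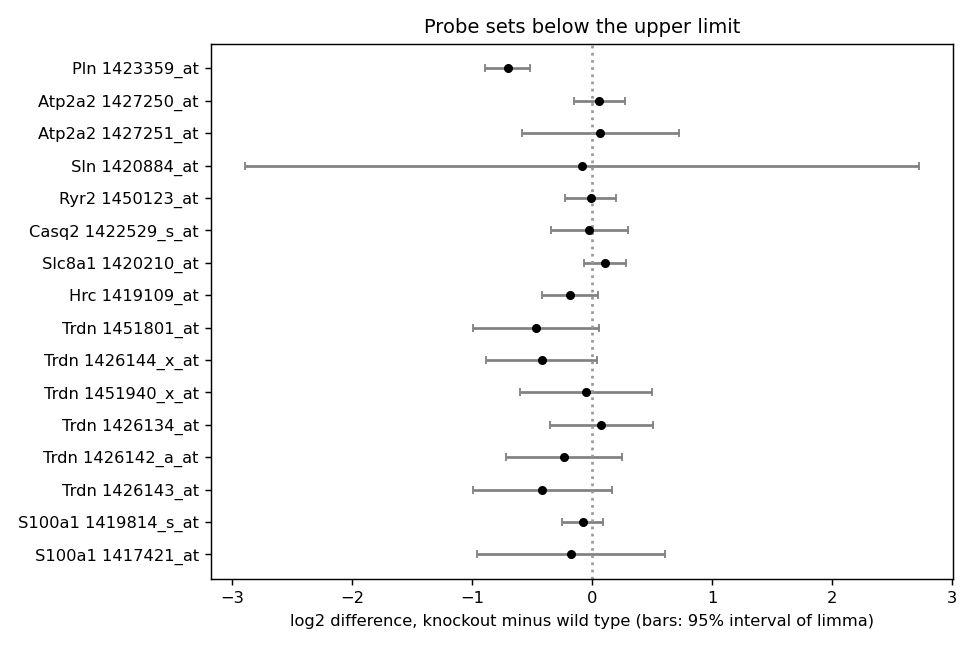
Log2 difference, knockout minus wild type, of the 16 tested probe sets below the limit, with the 95% interval of limma. The interval of Pln runs from -0.89 to -0.52 and every other interval includes 0.

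Over the 16 probe sets the median log2 difference was -0.08, with 4 above 0 and 12 below, against a median of -0.0023 over all tested probe sets. As Trdn alone supplies 6 of the 16, these are not 16 separate measurements.

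Other genes of calcium entry, release, uptake and their control gave few differences. Of 74 such genes 56 had a probe set and 47 were tested on their brightest probe set below the limit. At an unadjusted p under 0.05, 4 read higher and 1 lower in knockout, which together is 10.6%, against 12.2% of 8824 genes (6.75% higher and 5.46% lower), and 0 passed an adjusted p of 0.05. The share is no larger than the background. Prkar1a, the regulatory subunit that holds protein kinase A inactive, read 11594, 7491 and 10165 on knockout M4, M10 and M140, against 5888, 5541, 6081 and 6837 in wild type M23, M125, M128, M158. Each knockout reading exceeded each wild-type reading, with a log2 difference of 0.66 ± 0.17 (SE; adjusted p = 0.254 by limma), and its other probe set 1425550_a_at gave 0.66 with overlapping groups. Protein kinase A is among the enzymes that phosphorylate phospholamban, and a link between the Prkar1a and Pln readings was not tested.

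Tmem38b, a potassium channel of the store membrane, differed by 0.32 on 1449677_s_at and 0.58 on 1424700_at, but by -0.15 on 1419949_at. Atp2c1, a calcium pump of the Golgi, differed by 0.32 ± 0.07 (SE; adjusted p = 0.209 by limma) on 1437738_at and by -0.09 on 1434386_at. Atp2a3, the SERCA pump of non-muscle cells, differed by 0.24 on 1421129_a_at and by -0.0042 on 1450124_a_at. Cacna2d1, a subunit of the L-type calcium channel, was the 1 that read lower, at -0.33 ± 0.13 (SE; adjusted p = 0.404 by limma), with overlapping groups. Of the 5, only Prkar1a had the same sign and a similar size on every tested probe set where it had more than 1.

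The genes closest to Pln over the 7 arrays, by the same mean absolute difference of log2 deviations, were Nmb (0.066), Ppp3r1 (0.079), Snx16 (0.084), Mrps28 (0.092) and Pigu (0.10), against a mean absolute deviation of Pln itself of 0.35. Ppp3r1 encodes the regulatory subunit of calcineurin, the calcium-dependent phosphatase. It read 1944, 2041 and 2497 on knockout M4, M10 and M140, against 3723, 2948, 2889 and 3642 in wild type M23, M125, M128, M158. The knockout arrays lay below all wild-type arrays, and so they did for Nmb, Snx16, Mrps28 and Pigu. These genes were chosen for their closeness to Pln, whose groups were apart, so their separation is no separate result. A link of Ppp3r1 with Pln was not tested. For Hrc the closest were Adi1, Dhrs7, Pick1, Psmg1 and U2af1l4 (0.035 to 0.043, against 0.13 for Hrc itself). For S100a1 on 1419814_s_at they were Numbl, Cnih4, Dpp8, Grb7 and Itch (0.026 to 0.038, against 0.065), all of them lowest on knockout M10. Such likeness describes 7 arrays and was not tested.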

How the data were processed

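Left ventricle RNA of 7 mice was measured on 1 array each. The deposited table holds intensities on a linear scale made by the authors; the sources used here do not give their background correction or scaling. The experiment sheets, deposited as other information with no measurement per the file headers, gave hybridization days, scan days and chip lots. Of 22690 probe sets, 64 controls were left out; the platform annotation named 1 gene for 20380 and several for 691, which were not named, and 20351 matched the GRCm38.p6 gene table. Probe sets above the 40th percentile of their array on at least 3 arrays were tested (13836) on log2(intensity + 16), which understates differences of dim probe sets, by limma 3.58.1 in R 4.3.3 (eBayes with trend, no covariate, Benjamini-Hochberg over all tested probe sets, threshold 0.05). The model was checked on simulated intensities. Within-array differences had exact permutation tests. Array pairs shared at most 7.18% of values, so none was a duplicate, though 49.9% of probe sets held an equal value on at least 2 arrays. The number of arrays, 3 and 4, limits the precision, and p-values measure the spread between these arrays. Genes named were all members, Nos3, Myl7, pathway genes with an unadjusted p under 0.05 (up to 6 each way) and the 5 genes closest to Pln, Sln, Hrc and S100a1. Other probe sets of named pathway genes were looked up afterwards. Members and lists were chosen with earlier results of these data known. Alternatives were other offsets (1, 64), quantile normalization, normexp, other filters, no trend, array weights, day as a block, Myl7 or, added after the data were seen, the Gapdh ratio as a covariate, and arrays left out.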

Additional observations from a re-analysis of the deposited data

Results flagged for a closer look

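Of 51 sets of 4 wild-type values checked for 1 array far from the other 3 (gap over range above 0.829), 5 were found. Chance gives about 1 in 20 where all 4 values differ, as in 47 of the sets, of which 4 were found. In the other 4 sets at least 2 wild-type arrays held equal values, and the chance rate does not hold. Dpp8 is one of these, with 1 value shared by 3 arrays, so that its ratio is 1 whatever the remaining array reads. On wild-type M128, Atp2a2 (1427250_at) read 14763, Trdn (1426142_a_at) 3751, S100a9 4241 and Dpp8 2031. On wild-type M125, Myl7 read 16097. Without wild-type M128 the log2 difference of Atp2a2 1427250_at was -0.010 and that of Trdn 1426142_a_at was -0.052.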

How the results depend on the processing

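Pln read lower in knockout in all 22 alternatives. As its groups did not overlap, leaving arrays out could not change that sign. Changes of filter or trend left the log2 difference as it was. The log2 differences ran from -0.80 (array weights, adjusted p = 0.0151) to -0.58 (the day with both groups), with adjusted p of 0.0151 to 0.426. With 1 array left out the log2 difference was -0.76 to -0.65 (adjusted p 0.0393 to 0.426). Pln minus Atp2a2 within an array was -0.85 to -0.70 in 15 alternatives, with adjusted p of 0.143 to 0.50. As Pln alone separated the groups, these values are no separate result. Day as a fixed block compares only knockout M140 with wild-type M128, as every other day held 1 group, so only sizes are given for it. Over all tested probe sets 0 passed an adjusted p of 0.05. With array weights, which weighted knockout M4 most, 619 passed, and 21 passed at a threshold of 0.10. There were 2 without the arrays with most Myl7, 1 with the 60th percentile filter and 1 without wild-type M23 and M158. With an array left out 0 to 74 passed (74 without knockout M10, 27 without knockout M140). At an unadjusted p the 1636 became 3258 with array weights and 801 to 1639 with an array left out (801 without knockout M4). Among member probe sets, 1 (Pln) passed with array weights, 1 at a threshold of 0.10, and 0 to 1 with an array left out. At an unadjusted p the 1 became 2 with quantile normalization, no filter, array weights or the Gapdh ratio, 3 with day as a random block, 5 without wild-type M23 and M158, 6 with day as a fixed block, and 1 to 4 with an array left out (4 without wild-type M158, 2 without wild-type M128). The 47 pathway genes gave 9 with array weights and 4 to 7 in 3 other alternatives. The cause of these shifts was not tested.

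The 15 other member probe sets, none past the threshold, kept their sign and side in 290 of 329 alternatives. In 31 the sign changed, and the other 8 fell in neither count. Changes of filter or trend leave the log2 difference as it was, so in those the sign could not change. The sign stayed but the size moved by over 1.5 times in 102. Array weights gave Sln 0.083, Casq2 0.063 and Trdn 1451940_x_at 0.044. They gave Atp2a2 1427250_at 0.014 and Trdn -0.28 (1451801_at), -0.22 (1426144_x_at), -0.16 (1426143_at) and -0.045 (1426142_a_at). Day as a fixed block gave Atp2a2 1427250_at 0.27, Hrc -0.11, Atp2a2 1427251_at -0.62, Casq2 0.12 and Trdn 1426134_at -0.20, and as a random block Atp2a2 1427251_at -0.079. Without knockout M10 and wild-type M125, Casq2 was 0.17 and Trdn 1426134_at -0.029. Without wild-type M23 and M158, Atp2a2 1427251_at was -0.38, Ryr2 0.048 and Trdn 1451940_x_at 0.082. With the Gapdh ratio, Atp2a2 1427251_at was -0.18 and Trdn 1451940_x_at 0.025. With an array left out, ranges across 0 were -1.21 to 0.68 for Sln, -0.14 to 0.26 for Atp2a2 1427251_at, -0.010 to 0.090 for Atp2a2 1427250_at, -0.15 to 0.15 for Casq2, -0.070 to 0.045 for Ryr2, -0.26 to 0.063 for Trdn 1451940_x_at, -0.057 to 0.17 for Trdn 1426134_at, -0.13 to 0.012 for S100a1 1419814_s_at and -0.48 to 0.033 for S100a1 1417421_at. The limit set at 95% or 90% left the same 16 probe sets. No paired analysis was possible because no mouse number occurs in both groups. For dim probe sets and those near the limit the scale can hide a difference.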

Other observations

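On day 1, where a knockout (M140) and a wild-type heart (M128) were hybridized together, Trdn differed by -1.17 on 1451801_at, -1.07 on 1426144_x_at, -0.69 on 1426142_a_at and -1.30 on 1426143_at on the log2 scale, and by -0.20 on 1426134_at and -0.34 on 1451940_x_at. Wild-type M128 held the highest Trdn reading on each of these. On the same arrays Sln differed by -2.65, beside Myl7 of 407 on knockout M140 and 2926 on wild-type M128. These are single arrays with no test.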
